A study of Mus musculus with 3 samples.

Results

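Skeletal myogenic cells were a small population of the embryonic thymus preparations, with 77 such cells among the 17605 cell barcodes kept from 24616. They were chosen by expression. A kept barcode had at least 200 genes and 1000 unique molecular identifiers (UMIs, each a counted RNA molecule), under 20% mitochondrial UMIs and under 5% hemoglobin UMIs. A skeletal myogenic cell had in addition no UMI of Ptprc (the pan-leukocyte antigen CD45) or Epcam (an epithelial surface protein) and at least 1 UMI of at least 3 of the 5 genes Actc1, Myog, Ttn, Myod1 and Myf5. The control library held 3 of them, the library labelled Tbx1neo2/neo2 held 64 and the Foxn11089/1089 library held 10.

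Thymic lobes were taken from C57BL/6 mouse embryos between E13 and E13.5, dissociated with trypsin and profiled by droplet 3′ single-cell RNA-Seq, with 1 library per genotype. The control was wild type. Tbx1neo2/neo2 embryos carry a neomycin cassette in reverse orientation in intron 5 of both Tbx1 copies, which makes Tbx1 hypomorphic, and Foxn11089/1089 embryos carry a small deletion in both copies of Foxn1, the transcription factor of thymic epithelium. Both genotypes are models of a small thymus, and the number of embryos behind each library is not given in the sources used here. Genotype, library and dissection therefore cannot be told apart, cells of a library are not replicates, and no test between genotypes was run. All intervals below are 95% intervals that cover counting error only.

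The targeted genes were examined in every library. Tbx1 stood at 1.47 counts per 1000000 UMIs (CPM) over all kept barcodes of the control library, 5.05 CPM in the library labelled Tbx1neo2/neo2 and 6.36 CPM in the Foxn11089/1089 library, so it was not lower in the library labelled Tbx1neo2/neo2 than in the control. Foxn1 stood at 40.3, 36.8 and 90.6 CPM. Whether these 3′ reads register either altered allele was not tested, so the levels do not check the genotypes. The Tbx1 level does not bear out its label, and for the same reason it is not read against the label. The kept barcodes also differed in make-up, with 1184 Ptprc-positive cells of 5156 in the control and 442 of 4080 in the library labelled Tbx1neo2/neo2. The libraries held 82936619 UMIs (control), 137498422 (labelled Tbx1neo2/neo2) and 204655055 (Foxn11089/1089). Between 17 and 28 barcode sequences were shared by each pair of libraries, and 0, 1 and 2 skeletal myogenic cells carried a sequence shared by control with Tbx1neo2/neo2, control with Foxn11089/1089 and the mutant libraries. Scrublet, a doublet caller, marked 3 of 3, 0 of 64 and 1 of 10 skeletal myogenic cells as likely doublets, and these stayed in.

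Skeletal muscle forms through a cascade of basic helix-loop-helix factors. Precursors that carry Pax3 or Pax7 switch on Myf5 and Myod1, which commit them to the lineage, and Myog then drives differentiation, exit from the cell cycle, fusion into multinucleated fibres and assembly of the sarcomere, the contractile unit. Muscles of the neck and pharyngeal arches form close to the thymus and use Tbx1, Msc and Tcf21 upstream of the same cascade. The myogenic factors bind E-boxes, with CAGCTG as a preferred form, and contractile genes are also controlled through the CArG box of serum response factor and the MEF2 site.

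Promoters of 4 muscle genes are shown because the genes carry these motifs and stood out in the cells described here. Each sequence runs 5′ to 3′ on the strand of the gene and covers the 250 bases before the RefSeq start on GRCm38.p6. The capitals mark the E-box CAGCTG, its relative CAGGTG or a CArG box. Chrna1 (a subunit of the muscle acetylcholine receptor) is shown for chr2:73580339-73580588 on the minus strand, Mylpf (fast myosin light chain) for chr7:127211358-127211607 on the plus strand, Acta1 (skeletal alpha-actin) for chr8:123894776-123895025 on the minus strand and Actc1 (cardiac alpha-actin, the embryonic form in skeletal muscle) for chr2:114052876-114053125 on the minus strand.
Chrna1: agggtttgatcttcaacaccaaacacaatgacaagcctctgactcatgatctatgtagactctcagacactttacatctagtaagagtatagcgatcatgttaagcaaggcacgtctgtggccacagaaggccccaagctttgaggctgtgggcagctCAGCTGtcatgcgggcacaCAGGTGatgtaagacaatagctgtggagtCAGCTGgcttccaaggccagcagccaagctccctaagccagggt
Mylpf: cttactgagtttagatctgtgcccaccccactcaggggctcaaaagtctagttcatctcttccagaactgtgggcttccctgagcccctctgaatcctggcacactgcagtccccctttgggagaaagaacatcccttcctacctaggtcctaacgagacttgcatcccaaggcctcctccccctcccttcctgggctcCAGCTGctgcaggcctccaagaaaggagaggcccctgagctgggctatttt
Acta1: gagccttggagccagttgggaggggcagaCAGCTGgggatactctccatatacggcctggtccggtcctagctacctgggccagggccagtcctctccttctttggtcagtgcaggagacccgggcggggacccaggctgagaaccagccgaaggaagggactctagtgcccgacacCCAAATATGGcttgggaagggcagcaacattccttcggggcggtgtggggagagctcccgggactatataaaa
Actc1: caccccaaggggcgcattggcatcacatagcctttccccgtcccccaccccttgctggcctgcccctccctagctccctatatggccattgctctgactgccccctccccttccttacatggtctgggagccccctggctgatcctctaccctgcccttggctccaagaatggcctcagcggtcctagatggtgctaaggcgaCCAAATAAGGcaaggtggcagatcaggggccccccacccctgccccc

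Chrna1 held 2 CAGCTG motifs, 92 and 44 bases before the start, with CAGGTG between them at 73 bases. In Mylpf the CAGCTG motif lay 51 bases before the start. Acta1 combined CAGCTG at 221 bases with a CArG box at 73 bases, and Actc1 held a CArG box at 47 bases. Both strands were searched and no matches overlapped. CAGCTG was present in 16 of 39 promoters of the sarcomere list (41.0%), from the 32 of its 40 genes that matched a RefSeq entry, and in 4 of 9 promoters of the acetylcholine receptor list (44.4%). It was present in 13.0% of all 32851 promoters of the same length and in 2 of 21 promoters of the cell cycle list (9.52%). The CArG box was present in 5 of 39 sarcomere promoters (12.8%) against 1.47% of all promoters, and the MEF2 site in 3 of 39 (7.69%) against 2.92%. CAGGTG, or CACCTG on the other strand, was present in 9 of 39 (23.1%) against 17.2%. These are matches of letters, and binding was not measured.

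The share of kept barcodes that were skeletal myogenic was 0.0582% in the control library (exact Clopper-Pearson interval 0.0120 to 0.17%), 1.57% (1.21 to 2.0%) in the library labelled Tbx1neo2/neo2 and 0.119% (0.0573 to 0.22%) in the Foxn11089/1089 library. The share in the library labelled Tbx1neo2/neo2 was 27.0 times the control share (8.82 to 134) and 13.1 times the Foxn11089/1089 share (6.70 to 28.7). The Foxn11089/1089 share was 2.05 times the control share, with an interval of 0.529 to 11.6 that spans equality. These are descriptions, since the rule that defined the cells also sets their number, and with 3 control cells the ratios to control rest on few cells.

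The library labelled Tbx1neo2/neo2 also had the highest share at equal depth and over other denominators. Thinning every barcode to 2000 UMIs before the rule left 2 of 4962 barcodes (0.0403%), 42 of 3579 (1.17%) and 8 of 7824 (0.102%). Per 100 Pdgfra-positive cells, the mesenchymal cells of the preparation, there were 0.307, 4.41 and 0.407 skeletal myogenic cells, a ratio of 14.4 between the library labelled Tbx1neo2/neo2 and the control (4.70 to 71.5). All 3 control cells were among the likely doublets, so without likely doublets the control share was 0 and no ratio to control was formed, while the ratio to the Foxn11089/1089 library was 13.9.

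**Figure D1:**
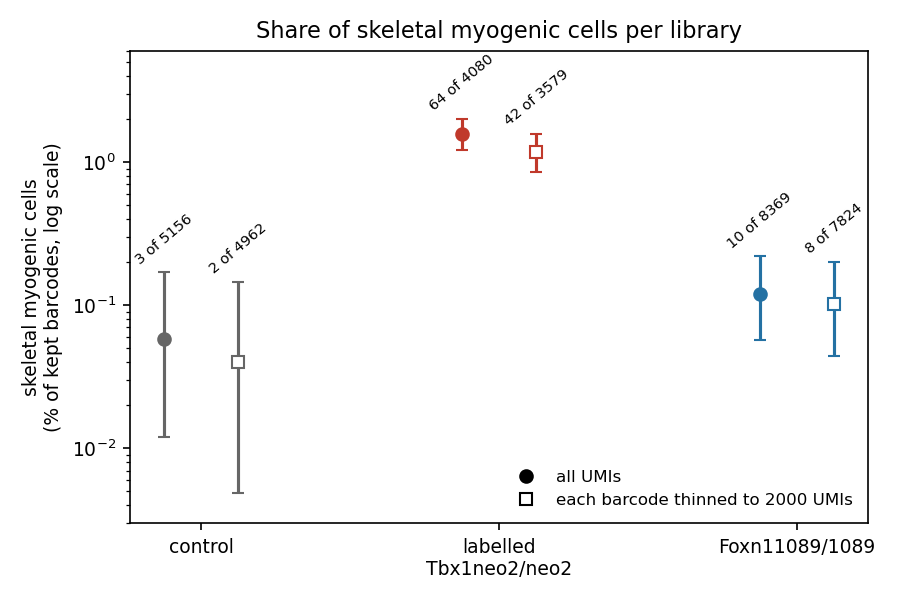
Share of skeletal myogenic cells in each library (y axis, % of kept barcodes, log scale), with filled circles for all UMIs, open squares for barcodes thinned to 2000 UMIs, and bars for exact 95% intervals of counting error. The library labelled Tbx1neo2/neo2 sits at 1.57% and 1.17%, above the other libraries at 0.0403 to 0.119%.

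The 5 genes that chose the cells are given as a description. Actc1 (chr2:114047282-114053548) had UMIs in 3 of 3 control, 60 of 64 Tbx1neo2/neo2-labelled and 10 of 10 Foxn11089/1089 cells, with 10, 34 and 140 UMIs in the control cells, a median of 57 (0 to 536) and a median of 151.5 (5 to 437). Myog (chr1:134289989-134292548) had UMIs in 3, 51 and 10 cells, with medians per cell of 34, 28 and 62.5 UMIs. Ttn, the giant elastic protein of the sarcomere, was present in 3, 58 and 8 cells. Myod1 was present in 3, 60 and 10 cells, whereas Myf5 was present in 0, 31 and 1. Actc1, Myog, Ttn and Myod1 without Myf5 was the commonest combination, in 3, 28 and 7 cells.

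The presence of these RNAs in the chosen cells is set in part by the rule, and the shares of cells and UMIs that follow are descriptions. In the library labelled Tbx1neo2/neo2, 97.4% of all Myog UMIs of kept barcodes and 96.0% of all Myod1 UMIs lay in the 64 cells. A Myog UMI was found in 2.71% of its 442 Ptprc-positive cells (median 60391 UMIs per cell), which should lack the gene, and in 1.24% of its 1450 Pdgfra-positive cells (median 25136 UMIs), against 79.7% of the skeletal myogenic cells (median 39440 UMIs). In the Foxn11089/1089 library the same shares were 0% of 500, 0.163% of 2460 and 100% of 10, with median depths of 29642, 13734 and 21322 UMIs. The 0 of 500 leaves an exact upper limit of 0.735%.

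Cells just inside and just outside the threshold are given by their UMIs of the 5 genes, which are the genes of the rule. In the library labelled Tbx1neo2/neo2, the 11 cells with exactly 3 of the 5 genes held 5 to 115 UMIs of them (median 22), and the 14 cells with exactly 2 held 2 to 245 (median 4.5). In the Foxn11089/1089 library 2 cells with exactly 3 genes held 14 and 149 UMIs, and 3 cells with exactly 2 held 2 to 76. The ranges overlapped in both mutant libraries, and no control cell had exactly 2 or 3.

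All genes past a UMI minimum were compared between the skeletal myogenic cells and the Pdgfra-positive cells of the same library, from UMIs summed over cells. Of 12703 genes with at least 30 UMIs over both classes in each mutant library, 191 were at least 4-fold higher in skeletal myogenic cells in both libraries (1.50%) and 666 were at least 4-fold lower in both (5.24%). The 191 include 4 genes of the rule that chose the cells, and the 666 include Pdgfra, which defined the comparison cells. The minimum is on both classes together, so a gene can reach it through a single class. The median gene differed by a log2 ratio of -0.40 in the library labelled Tbx1neo2/neo2 and -0.16 in the Foxn11089/1089 library. Because the cells were picked for muscle genes, higher levels of other muscle genes check the label and are not independent evidence. In the plot of gene lists in myogenic against Pdgfra-positive cells, the fusion, acetylcholine receptor, sarcomere, calcium handling and muscle metabolism lists stand above 1 in both libraries and the mesenchymal and extracellular matrix lists below it, while the integrin and dystrophin complex list stands at 0.874 and 2.04.

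**Figure D2:**
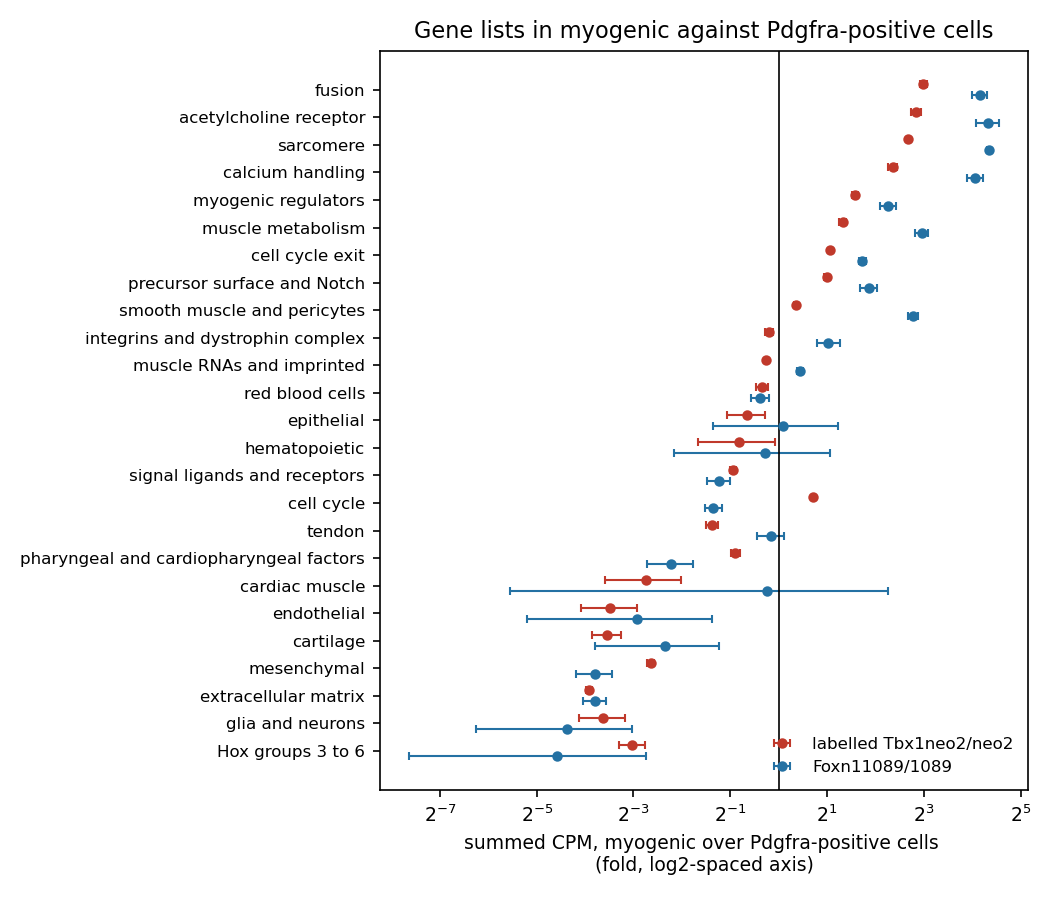
Summed level of each gene list in skeletal myogenic over Pdgfra-positive cells (x axis, fold, log2-spaced), with red points for the library labelled Tbx1neo2/neo2, blue points for Foxn11089/1089 and bars for 95% counting intervals. The fusion, acetylcholine receptor, sarcomere and calcium handling lists lie at 5.13 to 7.93 in red and 16.6 to 20.4 in blue, and the extracellular matrix list at 0.0661 and 0.0721.

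Sarcomere genes outside the rule were high in these cells. Without Actc1 and Ttn, which are in the rule, the list of 40 genes summed to 6530 CPM in the 3 control cells, 8197 CPM in the Tbx1neo2/neo2-labelled cells and 32391 CPM in the Foxn11089/1089 cells, against 1427, 1278 and 1590 CPM in the Pdgfra-positive cells of those libraries. Of its 28 genes that passed the UMI minimum, 25 were at least 4-fold higher in both mutant libraries and 0 were lower, and the median log2 ratio was 6.74 and 9.0. Tnnt1, the slow skeletal troponin T, stood at 1605 against 14.1 CPM (114-fold, 104 to 124) and at 3361 against 19.4 CPM (174-fold, 156 to 193). Des, the muscle intermediate filament desmin, was 19.4-fold (17.4 to 21.6) and 64.8-fold (53.4 to 78.2) higher. Tpm1, a tropomyosin that fibroblasts also express, differed by 1.60-fold (1.54 to 1.66) and 1.88-fold (1.70 to 2.08).

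Fusion genes marked the same cells. The genes for the fusion proteins myomaker (Tmem8c in the files, chr2:27061636-27072179) and myomixer (Gm7325, chr17:45600971-45602102) had 19, 431 and 106 UMIs and 22, 706 and 122 UMIs in the control, Tbx1neo2/neo2-labelled and Foxn11089/1089 cells. These cells held 97.1% and 95.5% of all Tmem8c UMIs of the mutant libraries. Against Pdgfra-positive cells, Tmem8c was 617-fold (341 to 1245) higher in the library labelled Tbx1neo2/neo2. Gm7325 was 1235-fold (647 to 2712) higher there and at least 6926-fold higher in the Foxn11089/1089 library, where Pdgfra-positive cells had none. Cdh15, the muscle cadherin, was 91.2-fold (73.0 to 115) and 70.3-fold (51.0 to 95.8) higher. Of 7 fusion genes that passed the UMI minimum, 5 were at least 4-fold higher and 1 was at least 4-fold lower.

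Genes of the nerve contact and of excitation followed. Chrna1, whose promoter is printed above, stood at 158 against 0.203 CPM in the library labelled Tbx1neo2/neo2 (777-fold, 391 to 1813) and at 331 against 0.0809 CPM in the Foxn11089/1089 library (4088-fold, 1344 to 20286). Chrng, the embryonic gamma subunit of the same receptor, had 97 and 17 UMIs in the cells against 0 and 1 in all Pdgfra-positive cells. The acetylcholine receptor list had 3 of 5 genes at least 4-fold higher and none lower, and the calcium handling list 7 of 11 and none lower. Atp2a1, the calcium pump of the sarcoplasmic reticulum, was 1606-fold (544 to 7831) and 2725-fold (878 to 13678) higher.

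Among regulators, the Eya factors, which act upstream of the myogenic cascade, were higher in both mutant libraries. Eya1 was 9.66-fold (6.54 to 14.1) and 8.52-fold (2.27 to 22.7) higher, and Eya2 13.2-fold (10.3 to 17.0) and 14.3-fold (6.69 to 27.3) higher. Mef2c, a partner of the myogenic factors, was 2.24-fold (2.06 to 2.43) and 32.3-fold (27.7 to 37.5) higher. Of 12 regulators past the UMI minimum, 4 were at least 4-fold higher in both libraries and 1, Tcf21, was lower, at 3.20 against 90.9 CPM and 4.59 against 159.6 CPM. Tcf21 marks mesenchyme as well as pharyngeal muscle precursors. Myf6, the remaining myogenic factor of the family, had 0, 1 and 1 UMI.

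Genes chosen by size alone, outside every list, were led by Gm28653, a long noncoding RNA at chr1:20669882-20684298 on the plus strand. It had 0, 253 and 48 UMIs in the skeletal myogenic cells, and 42 of 64 and 8 of 10 cells of the mutant libraries held it, against 1 UMI in the Pdgfra-positive cells of each mutant library. The ratio was 3984 (709 to 157954) and 8175 (1399 to 329554). The transcript spans Mir206 at chr1:20679010-20679082 and Mir133b at chr1:20682769-20682887, 2 muscle microRNAs whose mature 3p forms are shown because the transcript around them had the highest ratio of these genes. The capitals mark the seed, bases 2 to 8, and the sequences are from RefSeq.
mmu-miR-206-3p: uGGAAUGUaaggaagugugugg
mmu-miR-133b-3p: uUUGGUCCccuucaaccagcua

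The mature microRNAs themselves are not read by this assay, and their seeds differ. Vgll2, a cofactor of TEAD factors found in muscle, followed at 241-fold (158 to 385) and 249-fold (151 to 419) higher, with 9 UMIs in the 3 control cells. The others of the 10 highest were Arpp21, Ank1, Fitm1, Gatm, Palmd, Il17b, Rbm24 and Rprm, from 29.1-fold for Rprm to 182-fold for Arpp21 in the library labelled Tbx1neo2/neo2, with 20 to 58 of the 64 cells holding each. Rbm24 is an RNA-binding protein of muscle splicing and Ank1 encodes ankyrin 1, which has a short form in muscle.

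Matrix and mesenchymal genes were low. The extracellular matrix list summed to 344, 974 and 670 CPM in the skeletal myogenic cells against 9804, 14736 and 9302 CPM in Pdgfra-positive cells, and 14 of its 24 genes were at least 4-fold lower in both mutant libraries. Col3a1, a fibrillar collagen, was 42.6-fold (36.5 to 50.1) and 176-fold (60.1 to 852) lower. Dcn, the matrix proteoglycan decorin, was 132-fold (81.3 to 231) lower in the library labelled Tbx1neo2/neo2, and at least 63.7-fold lower in the Foxn11089/1089 library, where the 10 cells had none. Of 10 mesenchymal genes 8 were at least 4-fold lower in both. The 8 include Pdgfra, whose UMIs defined the comparison cells, so its low level was set in part by that choice. Pdgfra had 4 UMIs in the Tbx1neo2/neo2-labelled cells against 10724 in the Pdgfra-positive cells of that library. The 5 lowest genes outside the lists were Akap12, Nrp1, Gata6, Gdf10 and Sfrp1, between 122-fold and 865-fold lower in the library labelled Tbx1neo2/neo2.

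Markers of other cells were checked in the same sums. Cardiac muscle genes summed to 0, 6.00 and 4.59 CPM, with the markers Nppa, Myh6 and Myl7 at 0 in every library. Nkx2-5, also a cardiac marker, had UMIs in the Tbx1neo2/neo2-labelled cells and none in the other libraries. In the Tbx1neo2/neo2-labelled cells 5 of the 13 cardiac genes were detected, with 15 UMIs together. Endothelial genes summed to 26.4, 10.8 and 13.8 CPM, against 52.1, 120 and 104 CPM in Pdgfra-positive cells. Blood genes summed to 79.3, 6.00 and 18.4 CPM, against 83.4, 10.6 and 22.5 CPM. Epithelial genes summed to 0, 22.4 and 27.6 CPM, against 42.9, 35.4 and 25.9 CPM. Barcodes with a Ptprc or Epcam UMI were left out of both classes, so the low blood and epithelial sums were set in part by that choice. The smooth muscle list was at 3913, 1812 and 3664 CPM, most of it Acta2, an actin that embryonic skeletal muscle also makes, at 144, 4130 and 668 UMIs. Tendon genes were not low in every library, at 634, 197 and 510 CPM against 487, 512 and 570 CPM in Pdgfra-positive cells. Cartilage genes summed to 0, 37.2 and 27.6 CPM against 103, 435 and 140 CPM. Genes of glia and neurons summed to 0, 16.0 and 18.4 CPM against 426, 198 and 384 CPM. Hemoglobin and other red cell genes summed to 264, 230 and 1130 CPM, near the 236, 292 and 1473 CPM of Pdgfra-positive cells. The part of these RNAs in the results was not tested.

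The skeletal myogenic cells differed widely among themselves. The sarcomere share of a cell's UMIs, again without Actc1 and Ttn, was 0.299, 0.350 and 1.29% in the control cells, ran from 0.122 to 6.97% (median 0.465%) in the library labelled Tbx1neo2/neo2 and from 0.426 to 8.26% (median 0.989%) in the Foxn11089/1089 library. Limits of 0.2% and 1% were set after these values were seen. Under 0.2%, between the limits and at 1% or more there were 0, 2 and 1 control cells, 10, 42 and 12 Tbx1neo2/neo2-labelled cells and 0, 5 and 5 Foxn11089/1089 cells. The values formed a continuum, and the classes are ranges of it.

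**Figure D3:**
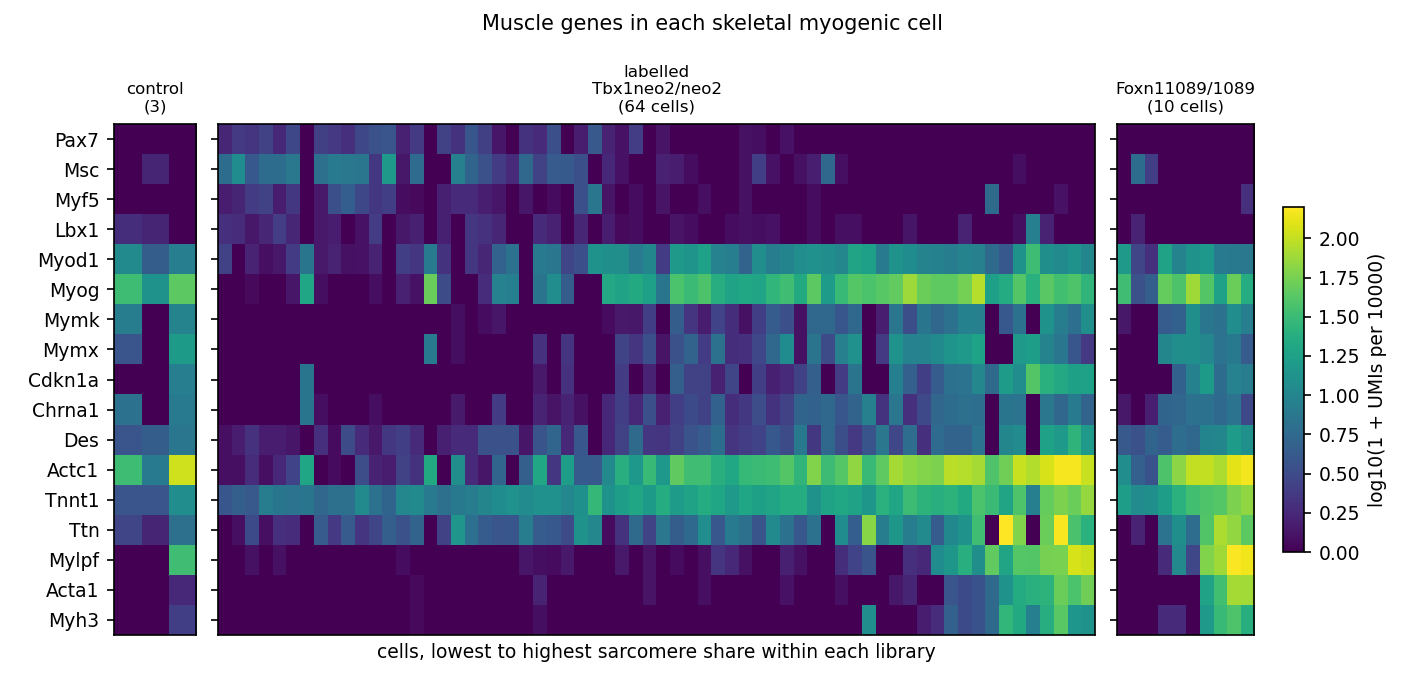
Level of 17 muscle genes in each skeletal myogenic cell (colour, log10 of 1 plus UMIs per 10000), with cells of each library ordered along the x axis from the lowest to the highest sarcomere share. Pax7, Msc and Myf5 fill the left of the Tbx1neo2/neo2-labelled panel, Mylpf, Acta1 and Myh3 the right of both mutant panels, and no Foxn11089/1089 or control cell has Pax7.

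At the low end of this order lay cells with precursor genes. Pax7, the factor of muscle stem and precursor cells (chr4:139737062-139833528), had 0 UMIs in the control cells, 174 UMIs in 31 of 64 Tbx1neo2/neo2-labelled cells and 0 UMIs in the Foxn11089/1089 cells. In the library labelled Tbx1neo2/neo2 it had no UMI in 1450 Pdgfra-positive cells and a UMI in 0.226% of Ptprc-positive cells. The 0 of 10 Foxn11089/1089 cells leaves an exact upper limit of 30.9%, and the 0 of 3 control cells one of 70.8%. Thinned to 10000 UMIs each, 22 of 56 Tbx1neo2/neo2-labelled cells held Pax7 (39.3%, 26.5 to 53.2%), against 0 of 10 and 0 of 3 in the other libraries.

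Pax7 divided the cells of the library labelled Tbx1neo2/neo2 along several genes. The 31 cells with Pax7 had a sarcomere share of at most 0.546% and a median depth of 45857 UMIs, against 32627 UMIs in the 33 without it. Summed over cells, Msc, a repressor of myogenic factors also known as MyoR, was 10.2 times as high in them as in the cells without Pax7 (7.36 to 14.5). Myf5 had UMIs in 27 of the 31 cells, but it is a gene of the rule, and cells without Myog could be chosen only with 3 of the other 4 genes. Notch3 and Hes1, a receptor and a target of the Notch pathway that holds back differentiation, were 5.49 (3.30 to 9.71) and 2.86 (1.99 to 4.20) times as high. The whole list of precursor surface and Notch genes, which holds Notch3, went the other way, at 887.4 CPM with Pax7 and 1252.5 CPM without it. Also lower in the cells with Pax7 were Tmem8c at 0.0491 times (0.0320 to 0.0725), Mef2c at 0.0573 times (0.0415 to 0.0774) and Cdkn1a, the cell cycle inhibitor p21, at 0.0300 times (0.0188 to 0.0454). The cells overlapped in Myog, however, since 18 cells held both Pax7 and Myog, 13 held Pax7 without Myog and 33 held Myog without Pax7.

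Notch ligand and receptor lay on opposite sides. Dll1, a ligand that differentiating cells present, had 91 UMIs in the 51 cells with Myog and 2 in the 13 cells without it, a ratio of 12.0 (3.23 to 101), and Notch3 a ratio of 0.497 (0.349 to 0.715). The fusion list was 4.89 times (4.10 to 5.87) and the sarcomere list 4.43 times (4.17 to 4.70) as high in the cells with Myog. The precursor surface and Notch list summed to 1107.8 CPM with Myog and 792.9 CPM without it. Myog is a gene of the rule, so cells without it were chosen through the other genes, and all 13 held Myf5 and Pax7. Ratios by Myog, here and below, can therefore be set in part by the rule.

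Cell cycle genes and sarcomere genes did not occur at high levels together. The summed share of 25 cell cycle genes passed 0.2%, a limit set after the values were seen, in 39 of 64 Tbx1neo2/neo2-labelled cells, 3 of 10 Foxn11089/1089 cells and 1 of 3 control cells. It stayed at or under 0.0711% in all 12 Tbx1neo2/neo2-labelled cells with a sarcomere share of 1% or more, and at or under 0.0320% in all 5 such Foxn11089/1089 cells. Myog and the cell cycle did coincide, as 29 of the 51 Myog-positive cells passed 0.2%. Over the Tbx1neo2/neo2-labelled cells the cell cycle list was 0.883 times as high with Myog as without (0.843 to 0.926). With barcodes thinned to 2000 UMIs the ratio was 1.16 (0.489 to 3.59), an interval that includes 1. Of the 42 cells then chosen, 97.6% held a Myog UMI. Nearly none were left without it, so no direction is read from the thinned ratio. In cells with a sarcomere share of 1% or more against those under 0.2%, the cell cycle list was 0.0271 times as high (0.0197 to 0.0365) and Cdkn1a had 403 UMIs against 1.

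**Figure D4:**
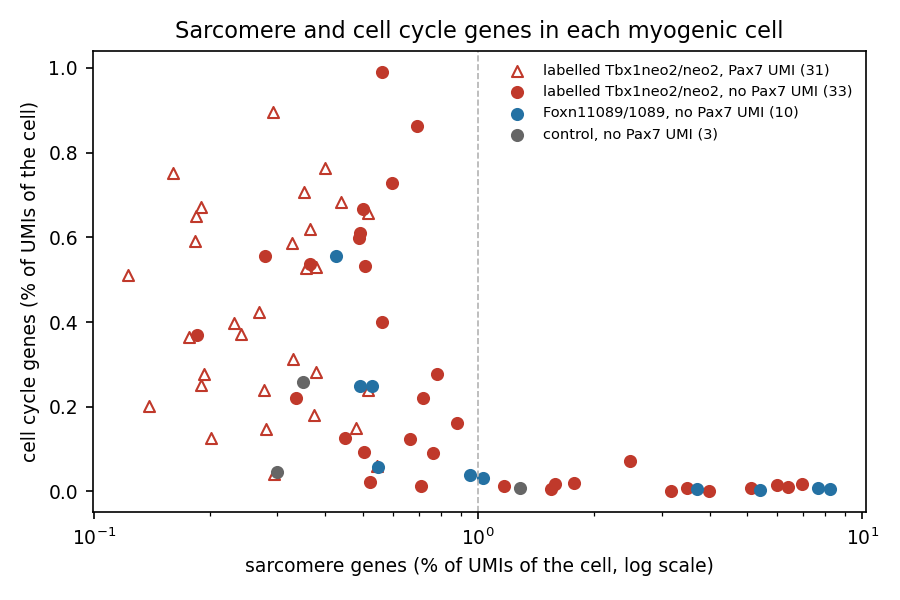
Summed share of cell cycle genes (y axis, % of a cell's UMIs) against that of sarcomere genes (x axis, %, log scale) in each skeletal myogenic cell, with open triangles for cells that hold Pax7 and the dashed line at 1%. Right of the line every cell lies at or under 0.0711% on the y axis, and the 31 triangles end at 0.546% on the x axis.

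Tbx1 itself was scarce in the skeletal myogenic cells. It had 0 UMIs in the control cells, 23 UMIs in 14 of 64 Tbx1neo2/neo2-labelled cells (9.21 CPM, 5.84 to 13.8) and 3 UMIs in 2 of 10 Foxn11089/1089 cells (13.8 CPM, 2.84 to 40.3), against 5.60, 5.31 and 4.34 CPM in Pdgfra-positive cells. The intervals of the mutant libraries overlap. In the library labelled Tbx1neo2/neo2, 21 of the 23 UMIs lay in cells with Pax7, 7.71 times the level of cells without it (1.89 to 67.9). Other genes of pharyngeal muscle gave a mixed picture. Lbx1, a homeobox factor of migrating limb and tongue muscle precursors, had 2 UMIs in 2 of 3 control cells, 94 UMIs in 36 of 64 and 1 UMI in 1 of 10 cells. Pax3 had 0, 7 and 1 UMI. Isl1, a factor of pharyngeal and heart progenitors, had 0, 23 and 9 UMIs. Hox genes of groups 3 to 6 summed to 44.4 CPM in the Tbx1neo2/neo2-labelled cells against 362 CPM in Pdgfra-positive cells, and to 2 UMIs in the Foxn11089/1089 cells.

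The skeletal myogenic cells of the mutant libraries were then compared with each other. Of 7179 genes with at least 30 UMIs over both, 1078 were at least 2-fold higher in the library labelled Tbx1neo2/neo2 (15.0%) and 479 were at least 2-fold lower (6.67%), around a median log2 ratio of 0.08. The cells had a median depth of 39440 UMIs (1255 to 79201) in the library labelled Tbx1neo2/neo2 and 21322 UMIs (11780 to 32206) in the Foxn11089/1089 library, and the part of depth in these counts was not tested beyond thinning. With barcodes thinned to 2000 UMIs, 465 genes reached the minimum. Of these, 31 were at least 2-fold higher and 34 at least 2-fold lower. Cell cycle genes were on the higher side, with 22 of 25 at least 2-fold higher and 0 lower, and the sum 3.43 times as high. Sarcomere genes were on the lower side, with 28 of 31 at least 2-fold lower and 0 higher, and the sum 0.253 times as high. Calcium handling and muscle metabolism genes were also lower, at 0.329 and 0.350 times, with 6 of 9 and 6 of 7 genes at least 2-fold lower and 0 higher in either list.

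The lowest genes in this comparison, among those with at least 300 UMIs over both libraries and at least 30 in each, were contractile. Tnnc2, the fast skeletal troponin C, had 331 UMIs in 13 of 64 Tbx1neo2/neo2-labelled cells and 279 UMIs in 7 of 10 Foxn11089/1089 cells, a level 9.67 times as high in the Foxn11089/1089 library (8.22 to 11.4). Acta1 was 7.96 times (7.08 to 8.95), Mylpf 7.86 times (7.27 to 8.51), Tnnc1 6.70 times and Myh3, the embryonic myosin heavy chain, 6.51 times (5.57 to 7.59) as high there. A few cells carried these sums, since 1 cell of each library held 39.98% of the Mylpf UMIs of the Foxn11089/1089 cells and 25.4% of those of the Tbx1neo2/neo2-labelled cells. Mylpf UMIs also occurred in 21.7% of Ptprc-positive cells of the library labelled Tbx1neo2/neo2 and 11.6% of those of the Foxn11089/1089 library, against 51.6% and 70.0% of the skeletal myogenic cells.

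Among genes with at least 300 UMIs over both libraries and at least 30 in each, the 5 highest ratios were those of Dek, 2700094K13Rik, Pgam1, mt-Nd3 and Hmgb2. Dek and Hmgb2, chromatin proteins abundant in dividing cells, stood at 405 against 142 CPM and 1150 against 482 CPM. Pgam1, a glycolytic enzyme, stood at 474 against 193 CPM, and mt-Nd3, a mitochondrial gene, at 2385 against 996 CPM. Top2a, a topoisomerase of dividing cells, had 1037 UMIs in 38 of 64 Tbx1neo2/neo2-labelled cells and 16 UMIs in 3 of 10 Foxn11089/1089 cells. Those 16 UMIs fall short of 30, so Top2a was not ranked.

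The ratios of these lists were also taken among cells closer in sarcomere share. Among the cells with Myog (51 and 10), the sarcomere sum was 0.302 times (0.294 to 0.310) and the cell cycle sum 3.33 times (2.94 to 3.79) as high in the library labelled Tbx1neo2/neo2. Among cells with a sarcomere share of 1% or more (12 and 5), the sarcomere sum was 0.714 times (0.693 to 0.736) and the cell cycle sum 1.53 times (0.779 to 3.29) as high. These cells were chosen by the sarcomere share, so the sarcomere ratio among them is set in part by that choice and nothing is read from it. Calcium handling there was at 0.918 times (0.804 to 1.05), the acetylcholine receptor list at 1.18 times (0.974 to 1.43), both with intervals that include 1, and the fusion list at 1.27 times (1.10 to 1.46). Mef2c, 3.75 times as high in all Foxn11089/1089 cells (3.19 to 4.39), stood at 1.02 times among these cells (0.865 to 1.21). That comparison used a limit set after the values were seen and only 5 cells of the Foxn11089/1089 library.

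**Figure D5:**
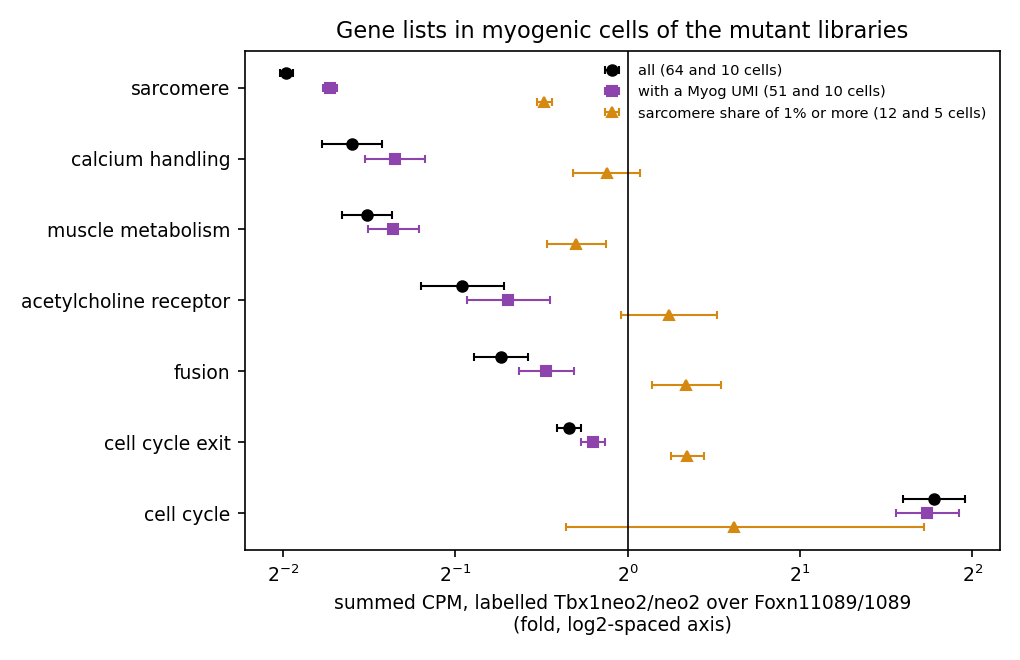
Summed level of 7 gene lists in the library labelled Tbx1neo2/neo2 over Foxn11089/1089 (x axis, fold, log2-spaced), for all skeletal myogenic cells (black), those with a Myog UMI (purple) and those with a sarcomere share of 1% or more (orange), with bars for 95% counting intervals. The cell cycle list lies at 3.43, 3.33 and 1.53 and the sarcomere list at 0.253, 0.302 and 0.714, of which the last is set in part by choosing cells on that list.

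The 3 control cells are given by their values alone. All 3 held Actc1, Myog, Ttn and Myod1 and none held Myf5 or Pax7. Tmem8c had 0, 8 and 11 UMIs in them and Gm7325 had 0, 3 and 19. Mylpf was found in the cell with the highest sarcomere share, at 42 UMIs. The share of cell cycle genes was 0.259, 0.0467 and 0.00780% in the 3 cells, so 1 cell carried most of their cell cycle UMIs, and it was not the cell with the highest sarcomere share. Cdkn1c, the cell cycle inhibitor p57, was abundant in the skeletal myogenic cells of every library, with 384 UMIs in the 3 control cells, 6167 CPM in the Tbx1neo2/neo2-labelled cells and 7535 CPM in the Foxn11089/1089 cells.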

How the data were processed

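Thymic lobes of 1 wild-type, 1 Tbx1neo2/neo2 and 1 Foxn11089/1089 library were compared. Per the file headers and the study's methods, the authors aligned reads to mm10 with Cell Ranger 3.0.0, and the deposited values are raw counts of UMIs per gene and called cell, not normalized. The submitters' processing notes also name Seurat, whose clusters were not used. GENCODE M21 supplied gene positions on GRCm38.

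The members and gene lists were chosen with earlier results of these data known. Kept barcodes passed the limits given in the report. UMIs were summed over the cells of a class and library and divided by the class total (CPM). Ratios carry exact conditional binomial intervals, shares Clopper-Pearson intervals and CPM exact Poisson intervals, all at 95% and for counting error only. For counts of genes past a fold, 0.5 UMI was added to both sums, and single genes were reported without it. A fold against a class at 0 was taken against 3 UMIs over the class. No test was run, since cells of 1 library are not replicates. The steps were tested on simulated data.

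Named genes were the 5 rule genes, Tbx1, Foxn1, Pdgfra, the 4 genes of each list with the most UMIs in the cells, all regulators and fusion genes, the 10 highest and 5 lowest ratios to Pdgfra-positive cells outside the lists, and the 5 highest and 5 lowest ratios between the mutant libraries among genes with at least 300 UMIs. The ranking between the mutant libraries also required at least 30 UMIs in each, and list genes could enter it. Dll1, Notch3, Des and Dcn fall outside this rule and were named after their values were seen, and Nppa, Myh6, Myl7 and Nkx2-5 are cardiac markers. Scrublet in scanpy 1.11.5 marked the highest scores, 0.8% per 1000 barcodes, and marked barcodes stayed in. Alternatives were thinning to 2000 UMIs, other marker numbers, other quality limits, other comparison cells, other UMI minimums, per-cell means and TMM factors from edgeR 4.0.16. Restricting to Myog-positive cells or to a sarcomere share of 1% or more, and thinning cells to 10000 UMIs, were chosen after seeing the data. Python 3.11.15, numpy 2.4.6, scipy 1.17.1, pandas 2.3.3 and R 4.3.3 were used. Some genes that the rule names are not reported here.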

Additional observations from a re-analysis of the deposited data

Results flagged for a closer look

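The sums of 3 gene lists lay on opposite sides of Pdgfra-positive cells in the mutant libraries, and the differences were not tested. The cell cycle list was 1.64 times the level of Pdgfra-positive cells in the library labelled Tbx1neo2/neo2 (1.61 to 1.67) and 0.392 times in the Foxn11089/1089 library (0.346 to 0.443). The integrin and dystrophin complex list stood at 0.874 times (0.821 to 0.928) and 2.04 times (1.72 to 2.39). The list of imprinted and muscle-associated RNAs stood at 0.836 times (0.825 to 0.847) and 1.36 times (1.31 to 1.41), whereas the median log2 ratio of its genes was below 0 in both, at -1.28 and -0.19, and Cdkn1c alone stood at 2.10 and 3.17 times.

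Muscle signal was also present in barcodes that the rule set aside. In the Foxn11089/1089 library 16 barcodes with at least 3 of the 5 genes were over the hemoglobin limit, of which 2 had no Ptprc and no Epcam UMI, against 2 such barcodes in the library labelled Tbx1neo2/neo2. Barcodes set aside for an Epcam UMI numbered 6 in the Foxn11089/1089 library and 4 in the library labelled Tbx1neo2/neo2. The control library had 0 in either class.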

How the results depend on the processing

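Under 21 alternatives, 107 of 125 values kept their direction and stayed within the counting interval of the value reported, or within 1.5 times for counts of genes and the sarcomere median, 16 moved and 2 turned direction. With 3 control cells the intervals are wide, so share ratios that stayed within them could still move by over 1.5 times. The ratio of the library labelled Tbx1neo2/neo2 to control was 14.9 over barcodes without Ptprc and Epcam and 14.4 over Pdgfra-positive cells, against 27.0 over all kept barcodes. Its ratio to the Foxn11089/1089 library was 8.58 over barcodes without Ptprc and Epcam against 13.1, and the ratio of Foxn11089/1089 to control was 1.32 over Pdgfra-positive cells against 2.05. Genes at least 4-fold higher than in Pdgfra-positive cells numbered 50 of 6022 with barcodes thinned to 2000 UMIs. They numbered 312 of 14234 and 105 of 10874 with UMI minimums of 10 and 100. Genes at least 4-fold lower numbered 109 of 6022 when thinned and 409 of 12721 with 2 of 5 markers. Between the mutant libraries, genes at least 2-fold higher and lower in the library labelled Tbx1neo2/neo2 numbered 31 and 34 of 465 when thinned. Without thinning they numbered 1078 and 479 of 7179, so the excess of higher genes was absent when thinned. At a minimum of 10 UMIs they numbered 1741 and 1013 of 9595, and at 100 UMIs 359 and 141 of 3532. In cells with a sarcomere share of 1% or more, chosen after seeing the data, they numbered 90 and 57 of 1955. Fewer genes reached the minimum in the thinned and restricted sets. The sarcomere median was 5.61 on the log2 scale in the library labelled Tbx1neo2/neo2 against all other barcodes without Ptprc and Epcam. The share of its cells with a Myog UMI was 97.6% when thinned, and no Tbx1 UMI (0 CPM) was then left in them. The cell cycle ratio of Myog-positive over Myog-negative cells turned to 1.02 (0.964 to 1.08) with 2 of Myog, Myod1 and Myf5 as the rule. It turned to 1.16 (0.489 to 3.59) when thinned. Both intervals include 1, and nearly none of the 42 thinned cells lacked Myog. The cause was not tested. Without likely doublets the control held 0 members, so no ratio to control was formed. No paired analysis was possible because there was 1 library per genotype, and no library could be left out for the same reason. Depth limits statements on scarce genes such as Tbx1, and the 3 control and 10 Foxn11089/1089 cells limit those on rare states.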
